A study of Mus musculus with 6 samples.

Results

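Genes that mark periportal hepatocytes were followed in livers of Mig-6 d/d and Mig-6 f/f mice, namely Aldh1b1, Hsd17b13, Cdh1, Cyp2f2, Hal and Etnppl. They are the 6 with a probe set of their own among 8 periportal genes listed for this purpose, from which the urea cycle enzymes were left out. Every probe set annotated to one of these symbols alone was taken, which gave 8 of the 34945 probe sets with a single symbol, for 6 of 18193 genes. Gls2, the liver glutaminase, and Sdsl, a relative of serine dehydratase, had no such probe set in the annotation used and were not analysed here. All 8 probe sets lay above the filter on dim probe sets, which removed those under an intensity of 48.3 on the normalized scale, so all 6 genes were among the 13718 tested.

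Total RNA of whole liver was hybridized to 6 Affymetrix mouse arrays, 3 from Mig-6 d/d mice and 3 from Mig-6 f/f mice. All mice were males aged 8 weeks on a mixed background, kept on standard chow and fasted for 24 h. Mig-6, encoded by Errfi1, binds receptors of the EGF family and restrains their signalling. The sources used here do not give how Mig-6 was deleted, in which cells, or whether every array comes from its own mouse. The p-values therefore reflect only the spread among these samples, which may be technical.

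Hepatocytes differ along the axis between the portal vein and the central vein of the liver lobule. Cells near the portal vein receive blood rich in oxygen and nutrients and carry more of the machinery for amino acid breakdown, ureagenesis and gluconeogenesis, while cells near the central vein carry more of that for glutamine synthesis, bile acid synthesis and xenobiotic oxidation. The genes studied here are known as markers of the portal side. In RNA of whole liver, a change in the size of the periportal zone and a change in RNA of the gene per cell cannot be told apart.

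The arrays carried the labelled genotypes. Errfi1 read 68.0, 61.8 and 59.6 in deposited intensity on the d/d arrays, against 5371, 5424 and 5686 on the f/f arrays. Median intensities were 55.6 to 60.9 on the d/d arrays and 56.8 to 65.4 on the f/f arrays, and precision is limited by the number of arrays. One f/f array, replicate 3, differed from the rest, with a mean correlation of 0.963 with the other arrays, where theirs were 0.978 to 0.981. On it the 18S ribosomal RNA controls averaged 3807, against 218 to 455 on the other 5 arrays. Calls and list directions that turned without it are given beside the result. Hepatocyte markers were bright, and the most abundant of them, Alb, averaged 35387 ± 612 in d/d and 33895 ± 228 in f/f livers (SD, n = 3 each).

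Of the 6 periportal genes, 4 read higher on every d/d array than on any f/f array, and Etnppl read lower on every d/d array. Aldh1b1 was 2.53 times, Cdh1 1.995 times, Hsd17b13 1.54 times and Cyp2f2 1.18 times as high in d/d livers, Etnppl was at 0.461 times its f/f level, and Hal, at 1.05 times, had overlapping groups. None of the 6 differences passed the threshold of 0.05 over all genes in limma, with Benjamini-Hochberg adjusted p from 0.182 to 0.916. The same test called 13 of 13718 genes, 0.0948%. At an unadjusted p under 0.05, 3 of the 6 were higher and 1 lower, where 4.77% of all genes tested were higher and 3.07% lower. Groups did not overlap for 4 that were higher and 1 that was lower, where the shares of all genes were 7.90% and 6.79%. Without f/f replicate 3 these counts were the same, while the share of all genes at that p was 11.2% and 27.9% had separate groups in either direction. The genes had been listed with earlier results of these arrays known, so these counts describe them and are no independent test.

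**Figure D1:**
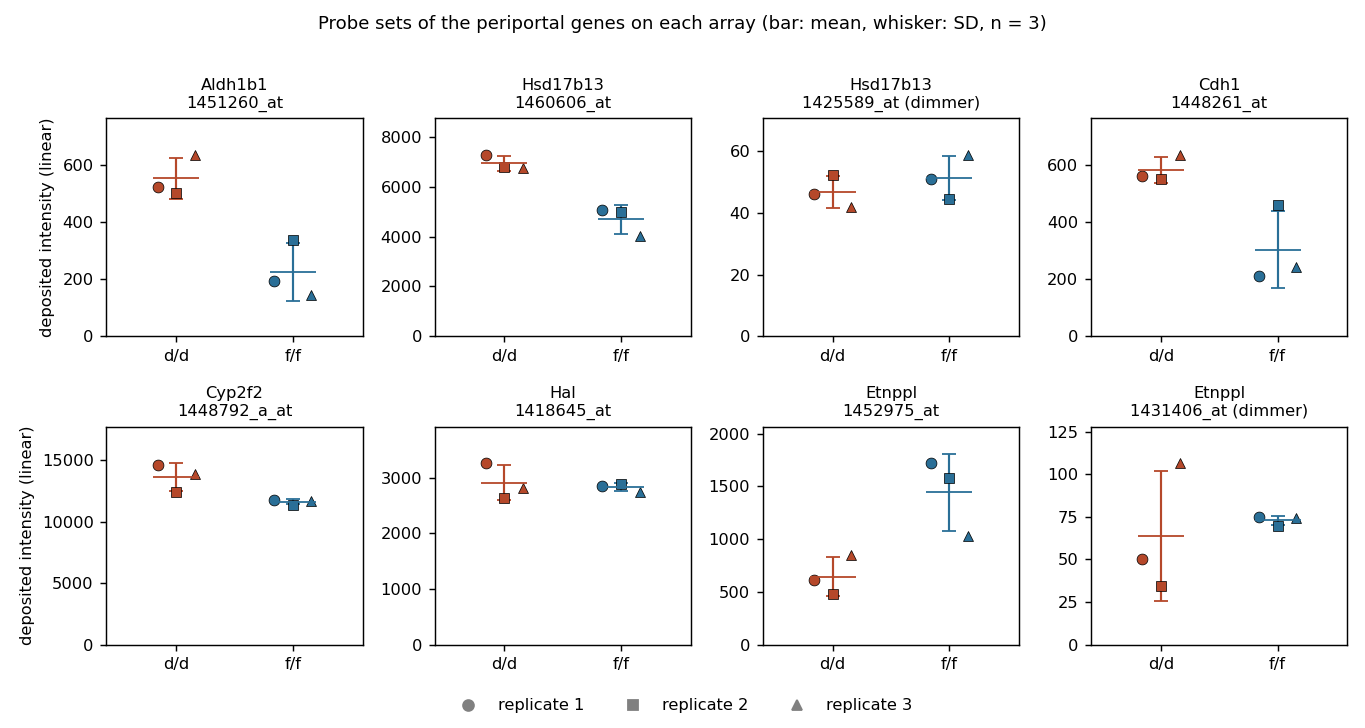
Deposited intensity (linear, vertical axes from 0) of each of the 8 probe sets on the 3 d/d arrays (left in each panel) and the 3 f/f arrays (right). Horizontal bars are means and whiskers 1 SD. The d/d points lie above all f/f points for Aldh1b1, Cdh1, Cyp2f2 and the brighter probe set of Hsd17b13, and below them for the brighter probe set of Etnppl.

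Aldh1b1 encodes a mitochondrial aldehyde dehydrogenase that oxidizes acetaldehyde and other aldehydes. It read 524, 501 and 637 on the d/d arrays, against 195, 338 and 144 on the f/f arrays. The 3 d/d values lay close together, and the f/f values spread more widely, with replicate 2 highest. The means were 554 ± 72.5 in d/d and 226 ± 100.2 in f/f livers (SD, n = 3 each). The log2 difference, d/d minus f/f on the scale of log2(intensity + 16), was 1.34 ± 0.28 (SE, 95% interval 0.70 to 1.98) and did not pass (limma, Benjamini-Hochberg adjusted p = 0.182). It passed in 2 other fits. Without f/f replicate 2 the difference was 1.66 (limma, Benjamini-Hochberg adjusted p = 0.0415), where 0.102% of all genes passed. With arrays weighted by their quality, f/f replicate 3 had a weight of 0.178 and the difference was 1.05 (limma, Benjamini-Hochberg adjusted p = 0.0364), where 1.57% of all genes passed. Its adjusted p lay between 0.0364 and 0.630 across the fits.

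Hsd17b13 encodes a dehydrogenase of the lipid droplet surface of hepatocytes. Its brighter probe set read 7277, 6779 and 6727 in d/d livers, against 5079, 4970.3 and 4002 in f/f livers. All d/d arrays exceeded all f/f arrays, and f/f replicate 3 was the lowest. The means were 6928 ± 304 in d/d and 4684 ± 593 in f/f livers (SD, n = 3 each), and the log2 difference was 0.62 ± 0.13 (SE, 95% interval 0.32 to 0.93) and did not pass (limma, Benjamini-Hochberg adjusted p = 0.20). With array weights it was 0.54 and passed (limma, Benjamini-Hochberg adjusted p = 0.0291, range across the fits 0.0291 to 0.748). The other probe set read 46.1, 52.4 and 42.05 in d/d livers, against 51.0, 44.6 and 58.9 in f/f livers. These values lie near the dim limit and overlap, with a log2 difference of -0.08 ± 0.11 (SE, 95% interval -0.32 to 0.16). The average of both probe sets had a difference of 0.27.

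Cdh1 encodes E-cadherin, the adhesion molecule of epithelial adherens junctions, which in the liver is found on bile duct cells as well as on periportal hepatocytes. It read 561, 552 and 636 on the d/d arrays, against 209, 458 and 242 on the f/f arrays. As for Aldh1b1, f/f replicate 2 was the highest of its group and the nearest to the d/d arrays. The means were 583 ± 46.1 in d/d and 303 ± 135 in f/f livers (SD, n = 3 each). The log2 difference was 0.996 ± 0.25 (SE, 95% interval 0.42 to 1.57) and did not pass (limma, Benjamini-Hochberg adjusted p = 0.272). Without f/f replicate 2 it was 1.32 and passed (limma, Benjamini-Hochberg adjusted p = 0.0223, range across the fits 0.0223 to 0.791).

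Markers of the bile duct cells that share Cdh1 were dim. Of 8 cholangiocyte markers with a probe set, 5 lay under the dim filter, among them Krt19 and Krt7, the defining keratins. Krt19 read 39.9, 47.7 and 90.5 in d/d livers, against 39.96, 34.8 and 47.2 in f/f livers. Only d/d replicate 3 stood above the rest for Krt19. The summed intensity of the 3 markers tested, Epcam (the most abundant), Sox9 and Muc1, was 166 to 199 in d/d and 173 to 235 in f/f livers. This sum was lowest on d/d replicate 3, at 166, the array where Krt19 was highest. Of the 3 markers tested, 2 were lower in d/d livers, while 3 of the 4 tested without f/f replicate 3 were higher. The part of bile duct cells in the level of Cdh1 was not tested.

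Cyp2f2 encodes a cytochrome P450 that in mice oxidizes naphthalene and is used as a reference marker of the portal side. It read 14652, 12384 and 13859 in d/d livers, against 11809.85, 11398 and 11688 in f/f livers. The groups did not overlap, but the f/f arrays lay close together and d/d replicate 2 lay nearest to them. The means were 13632 ± 1151 in d/d and 11632 ± 212 in f/f livers (SD, n = 3 each), and the log2 difference was 0.24 ± 0.12 (SE, 95% interval -0.03 to 0.51; limma, Benjamini-Hochberg adjusted p = 0.689). With each array shifted to a common median, in place of quantile normalization, its groups overlapped.

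Hal encodes histidine ammonia-lyase, which starts the breakdown of histidine. It read 3266, 2645 and 2825 in d/d livers, against 2855, 2895 and 2753 in f/f livers. The d/d arrays held both the highest and the lowest of the 6 values. The log2 difference was 0.07 ± 0.11 (SE, 95% interval -0.20 to 0.33; limma, Benjamini-Hochberg adjusted p = 0.916), and it was -0.01 without d/d replicate 1.

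Etnppl encodes a lyase that breaks phosphoethanolamine down to acetaldehyde, ammonia and phosphate. Its brighter probe set read 609, 476 and 845 on the d/d arrays, against 1720.5, 1579.6 and 1026 on the f/f arrays. The groups did not overlap, and the nearest arrays were the third replicate of each genotype. The means were 643 ± 187 in d/d and 1442 ± 367 in f/f livers (SD, n = 3 each). The log2 difference was -1.12 ± 0.25 (SE, 95% interval -1.69 to -0.55) and did not pass (limma, Benjamini-Hochberg adjusted p = 0.215). Without f/f replicate 3, the array that stood apart, it was -1.35 and passed (limma, Benjamini-Hochberg adjusted p = 0.0408), where 0.664% of all genes passed. It also passed with array weights (limma, difference -1.35, Benjamini-Hochberg adjusted p = 0.00906), and its adjusted p reached 0.728 across the fits. The other probe set read 49.98, 34.4 and 107 in d/d livers, against 74.7, 69.9 and 74.3 in f/f livers. There d/d replicate 3 was above all f/f arrays and the other d/d arrays below them, with a log2 difference of -0.25 ± 0.28 (SE, 95% interval -0.88 to 0.39). The average of both probe sets had a difference of -0.68, and its groups overlapped.

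**Figure D2:**
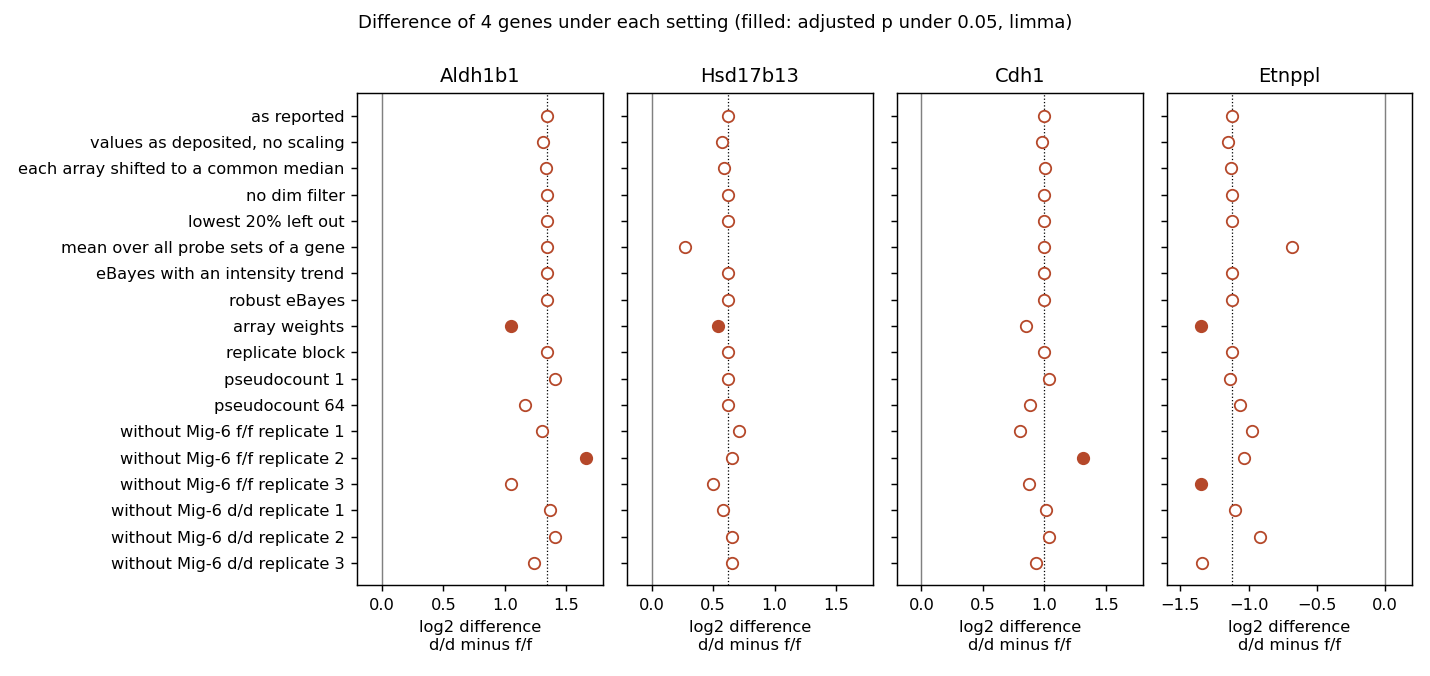
Log2 difference, d/d minus f/f, of the 4 periportal genes with an unadjusted p under 0.05, under the reported setting (top, dotted line) and 17 others. Filled points passed an adjusted p of 0.05 in limma: 2 for Aldh1b1, 1 for Hsd17b13, 1 for Cdh1 and 2 for Etnppl. The sign is the same in every fit shown. Fits that changed only the dim filter, variance model or replicate block cannot alter it.

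The promoters of the 3 genes with the lowest unadjusted p, 2 higher and 1 lower in d/d livers, and that of Hal, whose groups overlapped, are shown for comparison. Each runs from 250 bases before to 50 bases after the start of the gene, in RefSeq's table for GRCm38.p6, with the strand of the gene. Of the 6 genes, 5 were matched in the promoter table by symbol, and Cdh1 was not searched. Capitals mark the matches described next.
Aldh1b1, chr4:45798772-45799071, plus strand: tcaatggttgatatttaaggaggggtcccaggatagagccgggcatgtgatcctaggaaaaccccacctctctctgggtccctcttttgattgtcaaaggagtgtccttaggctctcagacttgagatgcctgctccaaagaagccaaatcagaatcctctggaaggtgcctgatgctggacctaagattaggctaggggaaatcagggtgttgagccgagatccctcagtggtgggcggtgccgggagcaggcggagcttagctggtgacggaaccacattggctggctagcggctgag
Hsd17b13, chr5:103977339-103977638, minus strand: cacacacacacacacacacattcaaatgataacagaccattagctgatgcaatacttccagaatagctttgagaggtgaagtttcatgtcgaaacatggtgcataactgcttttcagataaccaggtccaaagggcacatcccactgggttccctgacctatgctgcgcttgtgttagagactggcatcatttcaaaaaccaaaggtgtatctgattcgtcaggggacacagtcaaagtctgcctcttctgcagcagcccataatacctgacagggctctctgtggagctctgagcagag
Etnppl, first start, chr3:130617198-130617497, plus strand: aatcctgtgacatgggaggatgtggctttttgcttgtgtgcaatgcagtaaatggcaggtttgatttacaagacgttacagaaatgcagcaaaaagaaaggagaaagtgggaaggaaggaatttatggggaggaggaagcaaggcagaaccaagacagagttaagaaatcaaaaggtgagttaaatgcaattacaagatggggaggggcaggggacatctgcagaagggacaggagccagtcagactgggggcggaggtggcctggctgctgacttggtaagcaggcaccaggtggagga
Hal, chr10:93488518-93488817, plus strand: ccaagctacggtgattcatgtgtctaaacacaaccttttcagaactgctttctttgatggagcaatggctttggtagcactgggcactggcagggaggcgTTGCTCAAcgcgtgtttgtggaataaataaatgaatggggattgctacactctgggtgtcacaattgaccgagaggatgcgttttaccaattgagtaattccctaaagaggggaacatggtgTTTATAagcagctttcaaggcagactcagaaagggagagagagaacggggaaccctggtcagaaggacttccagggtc

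These motifs were searched on both strands: TGTTTAC for forkhead factors (FOXA and FOXO), TGACGTCA for CREB, TTGCNNAA for C/EBP, CAAAGTCCA for HNF4A, CACGTG (the E box) and TATAAA (the TATA box). The Hal window held a match to the C/EBP letters, which 10.8% of 32851 promoter windows of this length hold, and one to the TATA box at base 223 of the window, on the other strand, which 13.6% hold. Neither match overlapped another motif. The windows of Aldh1b1, Hsd17b13 and Cyp2f2 and both windows of Etnppl, which has a second start, held no match to these letters. The forkhead letters are in 3.65%, those of CREB in 1.79%, HNF4A in 0.475% and the E box in 7.15% of windows. These matches describe letters only.

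The pathways around each gene were described from lists of genes that share an enzymatic step, family or junction with it. Of 17 aldehyde dehydrogenases tested, 9 were higher and 8 lower with a median log2 difference of 0.01, and 0 passed. Besides Aldh1b1, Aldh1a7 had the lowest p (-0.42 ± 0.17, SE). Of 10 hydroxysteroid dehydrogenases of the Hsd17b family, 3 were higher and 7 lower with a median of -0.02, and 0 passed. The count was 5 higher and 5 lower without f/f replicate 3, and 8 higher and 3 lower, of 11 tested, without f/f replicate 1. Hsd17b7, an enzyme of cholesterol synthesis, had -0.87 ± 0.15 (SE), and passed without f/f replicate 3 and with array weights (limma, Benjamini-Hochberg adjusted p from 0.00736 to 0.520 across the fits). Hsd17b11, the closest relative of Hsd17b13 and picked after its values were seen, had -0.02 ± 0.13 (SE, 95% interval -0.31 to 0.27). Of 10 adherens junction genes, 7 were higher and 3 lower with a median of 0.11, which was -0.02 without f/f replicate 3, and 0 passed. Nectin2, an adhesion molecule, had -0.31 ± 0.16 (SE), and N-cadherin, Cdh2, picked after its values were seen, had 0.24 ± 0.28 (SE), which was -0.12 without f/f replicate 3.

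Of 8 genes of histidine, serine and glycine breakdown tested, 5 were higher and 3 lower with a median of 0.07, and 0 passed. Gcsh, a subunit of the glycine cleavage system, had 0.27 ± 0.11 and Ftcd, which ends histidine breakdown, 0.21 ± 0.097 (SE). Of 9 genes of phosphoethanolamine metabolism, 4 were higher and 5 lower with a median of -0.13, and 0 passed. Etnk1, the kinase that makes phosphoethanolamine, had 0.41 ± 0.15 (SE), opposite in sign to Etnppl. Of 8 genes of glutamine and glutamate metabolism tested, 6 were higher and 2 lower with a median of 0.07, and 0 passed. Got1, the cytosolic aspartate aminotransferase, had the lowest p of this list. It read 2686, 3321 and 2599.65 in d/d livers, against 5033, 6330.5 and 6837 in f/f livers, with a log2 difference of -1.02 ± 0.14 (SE; limma, Benjamini-Hochberg adjusted p = 0.0673, range across the fits 0.00736 to 0.393). It passed in several fits, among them those without f/f replicate 3, with array weights and with a common median. Slc38a5, a glutamine transporter, was next in this list (0.24 ± 0.14, SE).

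Further genes of the portal side went both ways. Of 11 listed, 9 were tested, 4 higher and 4 lower, and Alb at 0, since quantile normalization set it to the same value on every array. The median was 0, and without f/f replicate 3 it was 0.14, with 5 higher and 3 lower. G6pc, which catalyses the last step of glucose output, fell in d/d livers. It read 1400.0, 1266 and 1767 on the d/d arrays, against 3315, 3758 and 3567 on the f/f arrays, with a log2 difference of -1.24 ± 0.14 (SE; limma, Benjamini-Hochberg adjusted p = 0.0251). The call ended without f/f replicate 1 or 2 or d/d replicate 1 or 2 (adjusted p up to 0.210 over all fits). Hsd17b6, a dehydrogenase of steroids, and Apoa4, an apolipoprotein, both picked after their values were seen, had 0.98 ± 0.25 and 0.79 ± 0.23 (SE). Apoa4 passed without f/f replicate 3, where its difference was 1.04, and also with array weights. Of 8 urea cycle genes, 2 were higher and 6 lower with a median of -0.08, and 0 passed. Ass1, counted as lower, was read by a probe set at only 79.5 to 138 over the 6 arrays. Cps1, the most abundant of the list, averaged 13460 in d/d and 14142 in f/f livers. Asl, argininosuccinate lyase, had -0.54 ± 0.098 (SE; limma, Benjamini-Hochberg adjusted p = 0.121) and Slc25a15, the ornithine carrier, -0.31 ± 0.11 (SE). Asl passed with an intensity trend and with array weights (limma, lowest adjusted p = 0.0174).

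On the central side, 15 of 18 genes tested were lower in d/d livers and 3 higher, with a median of -0.23, while 53.5% of all genes tested were lower, with a median of -0.01. The 6 periportal genes had a median of 0.43, with 5 higher and 1 lower, and 0.26 with probe sets averaged per gene. No pericentral gene passed over all genes, and the 6 with an unadjusted p under 0.05 were all lower. With array weights 4 of the 18 passed, Oat, Cyp7a1, Gulo and Lect2, where 1.57% of all genes did. Cyp7a1, the rate-limiting enzyme of bile acid synthesis, had -1.01 ± 0.22 (SE; limma, Benjamini-Hochberg adjusted p = 0.20). Oat, ornithine aminotransferase, read 3432, 3644 and 3229 in d/d livers, against 6991, 6509.5 and 5166 in f/f livers. Its log2 difference was -0.80 ± 0.14 (SE; limma, Benjamini-Hochberg adjusted p = 0.119), and it passed without f/f replicate 3 at -0.93. The difference between the 6 periportal genes studied and the central list was not tested.

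**Figure D3:**
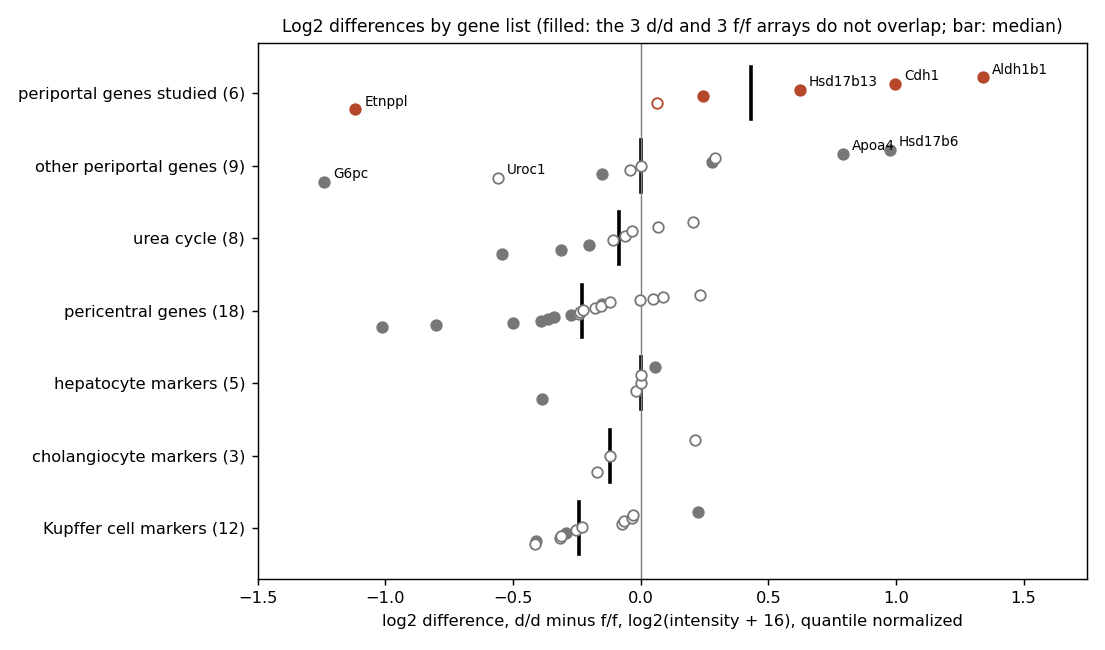
Log2 difference, d/d minus f/f, of each gene tested in 7 lists, with the number tested in brackets and the median as a black bar. Filled points are genes whose 3 d/d and 3 f/f arrays do not overlap. The periportal genes studied have a median of 0.43 and the pericentral genes one of -0.23. The other periportal genes have a median of 0 and the urea cycle genes one of -0.08.

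Markers of other cells of the liver were described beside these differences. Of 12 Kupffer cell markers, 11 were lower in d/d livers with a median log2 difference of -0.24, their summed intensity was 2764 to 3508 in d/d and 3201 to 4487 in f/f livers, and Cd5l was the most abundant. Of 10 endothelial markers, with Clec4g the most abundant, 8 were higher, with sums of 1773 to 2039 in d/d and 1599 to 1991 in f/f livers, but without f/f replicate 3, and likewise with array weights, 4 were higher and 6 lower. Of 10 stellate cell markers, with Dcn the most abundant, 7 were lower, with sums of 2577 to 3048 in d/d and 3207 to 3662 in f/f livers. Lymphocyte markers summed to 410.3 to 533 in d/d and 371 to 578 in f/f livers over 5 genes, and pancreatic acinar markers to 192 to 251 in d/d and 189 to 328 in f/f livers over 3. Cd8a and Cela2a were the most abundant of these. Without f/f replicate 3, 3 of the 5 lymphocyte markers and all 3 pancreatic markers were higher, against 1 of each list with all arrays. Markers of these lists with an unadjusted p under 0.05 were Ms4a1, a B cell protein (0.93 ± 0.19), Dcn (-0.28 ± 0.12), the complement genes C1qa (-0.41 ± 0.13) and C1qc (-0.29 ± 0.13) of Kupffer cells, and the hepatocyte gene Tat (-0.39 ± 0.15; each SE), and their groups did not overlap. Of all genes tested, 7.84% had such a p and 14.7% had groups that did not overlap. With all arrays, the other 4 lymphocyte markers tested were lower in d/d livers, among them Cd79a of B cells (-0.15 ± 0.11, SE). A second probe set of Ms4a1, under the dim filter, had 0.17 ± 0.16 (SE) with overlapping groups. Hepatocyte markers summed to 124892 to 127846 in d/d and 124076 to 126202 in f/f livers over 5 genes. None of these markers passed in limma with equal weights, Ms4a1 passed with array weights, and their part in the periportal differences was not tested.

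The genes most like Aldh1b1 and Hsd17b13 were found over the 6 arrays, by the mean absolute difference between log2 values centred on each gene's own mean. Both genotypes enter this measure, so the direction and rough size of the differences of the genes found follow from the choice. Closest to Aldh1b1 were Rdh16f2, of the retinol dehydrogenase family (0.15), Abcd2, a peroxisomal fatty acid transporter (0.18), Ccl9, a chemokine (0.19), and Itih5, an inter-alpha-trypsin inhibitor heavy chain (0.19). Among these 4, Abcd2 rose in d/d livers (1.54 ± 0.19, SE; limma, Benjamini-Hochberg adjusted p = 0.0311, range across the fits 0.00056 to 0.231), and the other 3 did not pass, although Rdh16f2 did without f/f replicate 3 and Itih5 in several fits, among them that without f/f replicate 3. The call of Abcd2 ended without f/f replicate 1 or any 1 d/d array, and with a pseudocount of 1. Closest to Hsd17b13 were Dusp16, a phosphatase of stress kinases (0.03), Jade1 (0.05), Nhlrc3 (0.05) and Nr5a2, a nuclear receptor of bile acid and sterol genes (0.06). Their log2 differences were 0.50 to 0.68, and none passed, although Dusp16, Jade1 and Nhlrc3 did with array weights. For Aldh1b1, Hsd17b13 and all 8 of these genes, f/f replicate 3 was the lowest of the 6 arrays, so that array adds to each likeness.

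**Figure D4:**
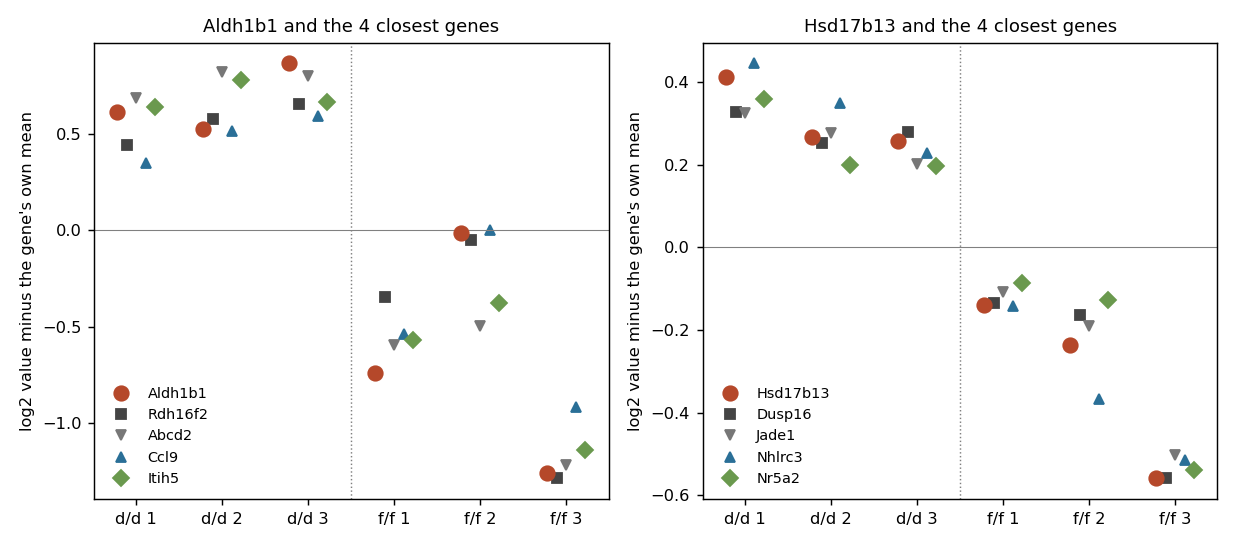
Log2 value of Aldh1b1 (left) and Hsd17b13 (right) and of the 4 genes closest to each on the 6 arrays, minus each gene's own mean. Points of 1 array are set side by side for legibility. All 10 genes have their lowest point on f/f replicate 3.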

How the data were processed

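Per the labels' protocols, mouse liver RNA carrying a biotin label was measured on 6 Affymetrix arrays. The authors deposited linear intensities per probe set for 45101 probe sets. The steps of probe summary, background correction and scaling and the genome build are not given in the sources used here. Gene names came from the annotation of the platform, where 34945 probe sets had 1 symbol, 932 several and 9160 none, besides 64 controls, and 34741 of the first were found by Entrez number in RefSeq's table for GRCm38.p6, with 0 symbols updated.

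Intensities were taken as log2(intensity + 16) and quantile normalized, since array medians differed by up to 0.185 log2. The brightest probe set stood for each gene, and the lowest 40% of probe sets were left out (log2 6.01). Genotypes were compared over 13718 genes by lmFit and eBayes (limma 3.58.1, R 4.3.3), with Benjamini-Hochberg adjustment and a threshold of 0.05. Single probe sets came from a fit over all 34945. Differences understate the change of dim genes, and quantile normalization gives the most abundant transcripts nearly fixed values. One promoter motif that was searched is not reported here. Figures used matplotlib 3.10.9 and Python 3.11.15.

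The fit was tested on 10 simulated data sets of this comparison, each of 13718 genes with 200 changed. It called 37.0% of genes changed 1.5-fold and 75.6% of those changed 2-fold, with 9.4 false among 164.6 calls on average. The measured comparison called 13 genes, so the adjustment there was stricter and these shares do not carry over to it. Alternatives covered scaling, dim filter, probe set, variance model, array weights, replicate block, pseudocounts of 1 and 64, the threshold and each array left out.

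The members and the 17 gene lists, with 152 of 169 genes measured, were chosen with earlier results of these data known. Named are all members, genes of a pathway list past the threshold or else its 2 with the lowest unadjusted p, the most abundant marker of each cell type, and the 4 genes closest to each of the 2 members with the lowest p. Genes outside this rule are picked with their values in view, among them Krt19, Krt7 and the markers with a low p. Groups of 3 are too small for the outlier test, which was not run.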

Additional observations from a re-analysis of the deposited data

How the results depend on the processing

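Of 19 alternatives to the reported fit, the differences of Aldh1b1, Hsd17b13, Cdh1, Cyp2f2 and Etnppl kept their sign in all, and that of Hal in 18, turning to -0.014 when d/d replicate 1 was left out. Alternatives of the dim filter, variance model, replicate block or threshold cannot change the difference itself, so their sign was fixed in advance. Leaving out 1 array, log2 differences ran from 1.05 to 1.66 for Aldh1b1, 0.50 to 0.71 for Hsd17b13, 0.80 to 1.32 for Cdh1, 0.16 to 0.31 for Cyp2f2, -0.014 to 0.14 for Hal and -1.35 to -0.92 for Etnppl. Members past the threshold numbered 3 with array weights (Aldh1b1 at 1.05, Hsd17b13 at 0.54, Etnppl at -1.35), where 215 of all genes passed (1.57%), and 0 to 2 with 1 array left out: 2 without f/f replicate 2, among 14 genes (0.102%), and 1 without f/f replicate 3, among 91 (0.664%). Genes past the threshold numbered 13 as reported, 4 to 91 with 1 array left out, 21 with an intensity trend, 21 at a threshold of 0.1, 26 of 34945 with every probe set on its own, and 6 with the replicate number as a block. The median of the members was 0.26 with probe sets averaged. Counts by non-overlap and by unadjusted p without each array were added after seeing the data. Replicate numbers are shared by the genotypes. Deviations from the group means of same-numbered arrays correlated at -0.003, -0.14 and -0.47. With 3 arrays per group these correlations depend on each other and cannot show whether same-numbered arrays share more than a number. Under the block, the members' adjusted p was 0.416 or more in limma, and G6pc and Abcd2 no longer passed. The cause of these changes was not tested.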
